A study of Mus musculus with 18 samples.

Results

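The genes described are the splicing factors of 3 families: heterogeneous nuclear ribonucleoproteins (hnRNP, symbols beginning Hnrnp), serine and arginine rich splicing factors (SR, symbols beginning Srsf) and small nuclear ribonucleoprotein proteins (snRNP, symbols beginning Snrp). Members were taken by symbol, without pseudogene or Gm names, where their mean over 18 libraries was at least 1 CPM, the count of a gene scaled to the size of its library. Of 34937 genes in the files, 43 carried such a symbol and 42 were members: 20 hnRNP, 10 SR and 12 snRNP genes. Hnrnph3, the lowest member, had a mean of 9.97 CPM, and Srsf12, the 1 gene below the threshold, had 0.0833 CPM. All 42 passed the filter on low counts and were tested with the other genes.

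Introns are removed by the spliceosome, which is built from small nuclear RNAs and their proteins. A ring of Sm proteins forms the core of the U1, U2, U4 and U5 particles, and each particle adds proteins of its own, such as the A and C proteins of U1. SR proteins bind exons and mostly promote the use of nearby splice sites, while hnRNP proteins coat the nascent transcript and often oppose it, so that the balance between them helps to set alternative splicing. Several of these genes, among them Hnrnpa1 and Srsf1, are known targets of the transcription factor MYC in tumour cells.

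Poly-A RNA of whole liver was sequenced from 18 mice, 3 per group, after a single kind of injury with carbon tetrachloride, a hepatotoxin injected into the peritoneum (0.5 µL per g). The mice carried MycER, in which MYC is joined to the ligand-binding part of an estrogen receptor, so that daily tamoxifen (1 mg) switches it on. Group 12 was sampled on day 12 after injury without MycER activation and group 12ON on day 12 with it. Groups 1OFF, 2OFF, 3OFF and 7OFF are labelled as 1, 2, 3 and 7 days after injury with no activation. The labels do not say whether MycER had been active earlier in the OFF mice, whether group 12 received tamoxifen, or which promoter and cells drive the transgene, and they give neither strain nor age. Days after injury therefore differ between 12ON and every OFF group, and the effects of time and of activation cannot be told apart there.

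Libraries held 23.1 to 75.3 M gene counts, of which members took 0.263% to 0.582%. Values below are normalised CPM, and errors of group means are SD over 3 mice. All 9 hepatocyte markers checked were detected in every library, with a summed level of 110463 to 120087 CPM in group 12. Mitochondrial genes took 4.8% to 5.25% of counts in group 12 and 6.42% to 7.11% in 12ON, without overlap. Xist was high in 1 library of each group but 1OFF, where it was low in all 3, and the labels give no sex. Calls come from quasi-likelihood F tests in edgeR, adjusted over 17789 genes by the method of Benjamini and Hochberg, at 0.05, and errors of log2 fold changes are standard errors.

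MYC, with its partner MAX, binds the E-box CACGTG, and the letters around the transcription start were therefore searched in the RefSeq windows of GRCm38.p6 (250 bases before to 50 after a start). Of the 42 members 38 had a window, and 6 of these (15.8%) held the E-box, against 8.09% of 27025 genes. They were Hnrnpa3, Hnrnpd, Hnrnpf, Hnrnph2, Hnrnpm and Snrpa. In Hnrnph2 and Hnrnpm the only match lay after the start, at offsets of 15 and 13 bases. The ETS motif CCGGAAG, typical of housekeeping promoters and searched on both strands, was in 10 of 38 members (26.3%) and in 9.93% of genes. The E-box reads the same on both strands. A match is a description of the letters and not of binding. The 150 bases before the RefSeq start are shown for Snrpa and Hnrnpd, which hold E-boxes (in capitals), and for Hnrnpa1 and Snrpd2, which rose in 12ON with small adjusted p and hold none. The gene as counted can start elsewhere: that of Snrpd2 begins at 19149722, within the stretch shown.
Snrpa (chr7:27196272-27196421, minus strand): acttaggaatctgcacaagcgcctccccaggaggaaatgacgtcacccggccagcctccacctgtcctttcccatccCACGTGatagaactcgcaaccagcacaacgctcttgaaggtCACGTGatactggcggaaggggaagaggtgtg
Hnrnpd (chr5:99978939-99979088, minus strand): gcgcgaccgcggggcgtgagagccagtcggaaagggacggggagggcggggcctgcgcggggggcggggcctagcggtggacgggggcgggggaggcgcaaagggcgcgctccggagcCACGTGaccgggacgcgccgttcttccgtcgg
Hnrnpa1 (chr15:103240247-103240396, plus strand): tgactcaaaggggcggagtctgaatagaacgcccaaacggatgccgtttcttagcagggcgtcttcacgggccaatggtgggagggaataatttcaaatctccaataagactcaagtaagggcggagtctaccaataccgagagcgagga
Snrpd2 (chr7:19149688-19149837, plus strand): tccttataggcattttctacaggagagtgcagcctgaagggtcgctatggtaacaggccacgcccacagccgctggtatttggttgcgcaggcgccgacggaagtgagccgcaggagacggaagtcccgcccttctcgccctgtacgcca
The Snrpa stretch holds 2 E-boxes, and the Hnrnpd stretch holds 1. Of the 29 members with a window that were higher in 12ON than in group 12, 4 held an E-box.

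Levels per kb of exon spread widely within each family. The length used is that of all annotated exons, which can differ from that of the transcripts expressed. It ran from 613 bases for Snrpd2 to 22199 for Hnrnpr, so ranks per kb depend on the annotation. Snrpc, for example, had 18.5 CPM in group 12 against 10.2 CPM for Snrpd1, but the order is the reverse per kb. In group 12, Hnrnpf, which binds G-rich tracts, was the highest hnRNP gene at 65.9 ± 3.95 CPM per kb, and Hnrnpab was next at 64.3 ± 5.22. Their difference was smaller than the spread between mice. Hnrnpr was the lowest hnRNP gene, at 1.57 ± 0.179 CPM per kb. Among SR genes, Srsf5 stood highest at 46.8 ± 8.32 and Srsf10 lowest at 4.92 ± 0.078 CPM per kb. The Sm gene Snrpd2 led the snRNP genes at 50.3 ± 3.02, and Snrpc, which encodes the C protein of U1, was lowest at 2.97 ± 0.253 CPM per kb. The top hnRNP place passed in 12ON to Hnrnpa1, at 105 ± 13.01 CPM per kb, ahead of Hnrnpab at 97.3 ± 6.34. Srsf2 (46.97 ± 2.99) and Srsf5 (43.5 ± 1.304) were the highest SR genes there and their ranges met. Reads that align to several places were not counted, so genes with processed copies are undercounted by an unknown amount. Of the 50-base windows of Hnrnpf transcripts 61.9% also occur in other annotated genes, as do 28.2% of those of Hnrnpa1, which matched 19 pseudogenes.

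The first comparison asked how day 12 livers with active MycER differ from those without. Splicing factor genes were mostly higher with activation: 32 of 42 rose and 2 fell, where 24% of all tested genes rose and 22.6% fell. The median log2 fold change was 0.42 over members and -0.005 over all tested genes. Most rises were modest, and only Snrpd1, Hnrnpa1 and Snrpf reached 2-fold. The summed level of all members went from 3312 ± 140.1 to 4395 ± 255 CPM. In whole liver, fewer cells of a type and less RNA per cell cannot be told apart. By family, 14 of 20 hnRNP genes rose and 1 fell (median 0.36), 7 of 10 SR genes rose (median 0.41), and 11 of 12 snRNP genes rose and 1 fell (median 0.77). Every 12ON library lay above every group 12 library for 33 members and below for 3, against 30% and 28.2% of tested genes.

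**Figure D1:**
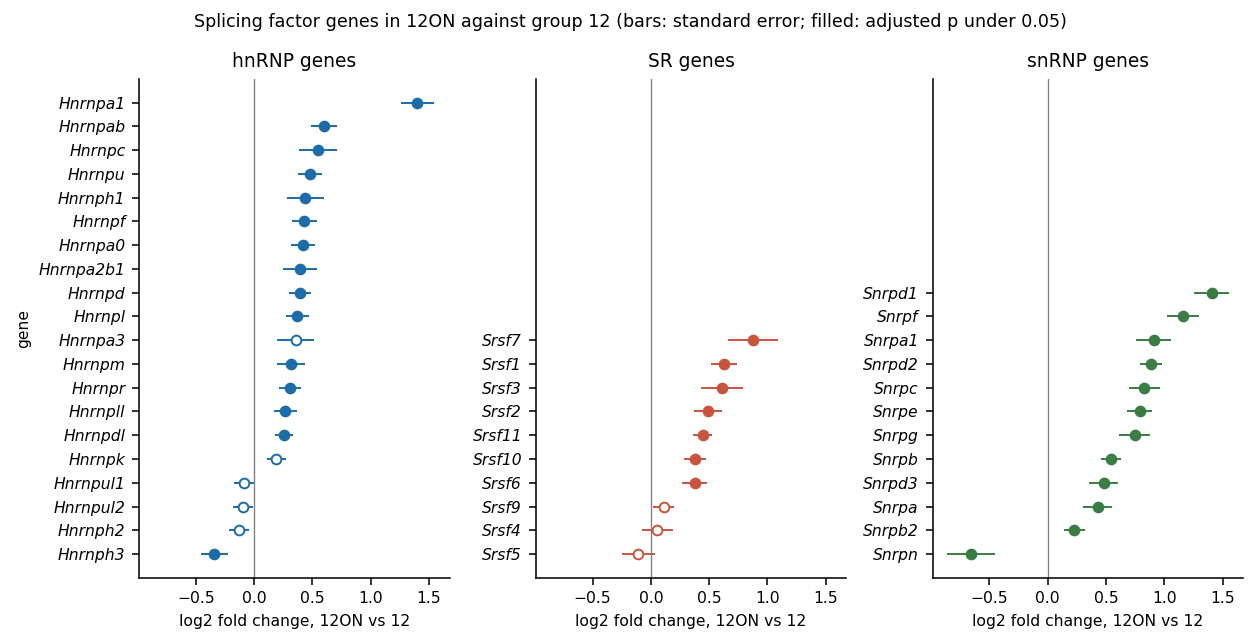
Log2 fold change of each member in 12ON against group 12, with hnRNP, SR and snRNP genes in separate panels, bars for the standard error and filled points for genes with an adjusted p under 0.05. Snrpd1 at 1.41 and Hnrnpa1 at 1.40 stand furthest right, and Snrpn at -0.66 furthest left.

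Other features moved with the groups. Scaled by total counts alone, the median of all tested genes shifted by 0.49 in 12ON against group 12, by -0.31 in 3OFF and by -0.41 in 7OFF against 12ON, and the median over members was then 0.92 in 12ON against group 12, to be read against that 0.49. With a term for the mitochondrial share, added after the data had been seen, 16 members rose (4 hnRNP, 3 SR and 9 snRNP genes) and 1 fell in 12ON. How many of all genes were called with that term was not computed. The median over members was 0.43 with that term, close to the 0.42 without it. The 8 cycling cell markers all rose, from a summed 57.9 to 68.6 to 381 to 503 CPM, and 8 of 9 hepatocyte markers fell and 1 rose, to 32501 to 40124 CPM. Alb made most of the hepatocyte sum in every library of the series, with 88427 to 95863 CPM in group 12 and 21606 to 27566 in 12ON. Hnf4a had 718 to 867 and 426 to 497 CPM, and the marker that rose was Cps1. All 6 cholangiocyte markers rose (summed 32.4 to 93.8 CPM in group 12 and 186 to 199 in 12ON), 3 of 6 stellate markers rose (125 to 156 and 235 to 253), and all 6 endothelial markers fell (311 to 356 and 154 to 169). Most of the stellate difference was Col1a1, with 29.4 to 41.9 CPM in group 12 and 119 to 139 in 12ON, while Reln, Des and Acta2 overlapped. Kupffer cell markers fell for 5 of 6 (1315 to 1733 and 660.3 to 1048) and lymphocyte markers for 3 of 6 (7.09 to 8.096 and 3.03 to 3.43). Sums overlapped for neutrophil (175 to 253 and 193 to 263) and erythroid markers (224 to 269 and 193 to 567). None of these markers was at 0 in either group, and their part in the change of splicing genes was not tested.

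Sm ring genes made 2 of the 3 rises of at least 2-fold. Snrpd1, which encodes SmD1, lay at 10.1, 9.75 and 10.7 CPM in the 3 libraries of group 12 and at 23.2, 29.9 and 28.1 CPM in 12ON (log2 1.41 ± 0.15, edgeR adjusted p = 4.33e-06). The groups were far apart, with a 2.65-fold difference of fitted levels. Snrpd2, for SmD2 (chromosome 7, 19149722 to 19152735 in GRCm38), lay at 28.9, 32.6 and 30.9 CPM in group 12 and 56.5, 61.9 and 52.5 CPM in 12ON (log2 0.89 ± 0.09, edgeR adjusted p = 4.29e-06). All 3 libraries with activation were again above all 3 without. Snrpf, for SmF, had 11.8, 12.96 and 11.6 CPM in group 12 and 25.4, 30.3 and 25.6 CPM in 12ON (log2 1.16 ± 0.14, edgeR adjusted p = 1.04e-05). Ccdc38, which lies on the opposite strand, shares 567 exonic bases with Snrpf (65.9% of its exons) and had a log2 fold change of 0.85 ± 0.18, and since strand was not used in counting, these cannot be told apart. A second gene on that strand, 4933408J17Rik, covers 19.5% of Snrpf exons at a mean of 0.865 CPM and had a log2 fold change of 1.57 ± 0.39, so that 85.4% of the exonic bases of Snrpf are shared. Snrpe, Snrpg, Snrpb and Snrpd3, the other ring genes, rose by log2 0.79 ± 0.10, 0.75 ± 0.13, 0.54 ± 0.09 and 0.48 ± 0.12 (edgeR adjusted p from 2.73e-05 to 0.00458). Snrpd3 shares 6.76% of its exonic bases with Gucd1, which did not pass the test.

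Snrpn went the other way. It encodes SmN, a close relative of SmB that is abundant in brain, and is expressed from the paternal allele. Its levels were 16.9, 10.6 and 14.3 CPM in group 12 and 9.49, 8.001 and 8.88 CPM in 12ON (log2 -0.66 ± 0.21, edgeR adjusted p = 0.0153). The groups did not overlap, although the lowest mouse of group 12 lay close to the highest of 12ON. Scaled by total counts alone, the log2 difference was -0.18 and the call ended (edgeR adjusted p = 0.467). Snurf shares a transcript with Snrpn and moved by log2 -0.85 ± 0.27 (edgeR adjusted p = 0.0169), while Gm38393, which covers 27.3% of Snrpn exons, moved by -0.37 ± 0.21 and did not pass. Reads of these genes were counted for each of them.

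All 4 genes for proteins of U1 or U2 alone rose. Snrpa1, for a U2 protein (chromosome 7, 66060299 to 66074582), stood at 14.4, 17.1 and 14.5 CPM in group 12 and 28.2, 30.03 and 28.3 CPM in 12ON (log2 0.91 ± 0.15, edgeR adjusted p = 1.59e-04). For Snrpc the values were 17.1, 20.2 and 18.2 CPM without and 32, 36.1 and 30.7 CPM with activation (log2 0.83 ± 0.13, edgeR adjusted p = 1.11e-04). Neither gene had overlapping groups. Snrpa, for the A protein of U1, had 23.1, 26.3 and 20.3 and 29.5, 34.4 and 29.9 CPM (log2 0.43 ± 0.12, edgeR adjusted p = 0.00921). Snrpb2, for another U2 protein, changed least, from 16.2, 14.1 and 15.5 to 16.95, 17.5 and 19.2 CPM (log2 0.23 ± 0.09, edgeR adjusted p = 0.0486). The call of Snrpb2 also ended in edgeR with RLE scaling, without the filter, with only the 2 groups in the fit, with the replicate block and with the Xist and mitochondrial terms added later (adjusted p between 0.0541 and 0.382), and in DESeq2 (adjusted p = 0.0537), at log2 differences from 0.18 to 0.24. Single mice mattered for these smaller changes too: in edgeR the call ended for Snrpa without 12 replicate 3 and 12ON replicate 2 (adjusted p between 0.0501 and 0.0522), Snrpb2 without 12 replicate 2 or 3 and 12ON replicate 2 or 3 (adjusted p between 0.0833 and 0.187) and Snrpn without 12 replicate 1 and 12ON replicate 2 (adjusted p between 0.0585 and 0.0789). Together the 12 snRNP genes went from 263 ± 6.84 to 417 ± 29.7 CPM, and their share of member CPM was 7.69% to 8.2% in group 12 and 9.32% to 9.6% in 12ON, with no overlap.

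Among hnRNP genes Hnrnpa1 stood alone. This gene (chromosome 15, 103240432 to 103244955) encodes a shuttling protein that represses many exons. It lay at 66.8, 81.2 and 80.7 CPM in group 12 and 198, 227 and 177 CPM in 12ON, means of 76.2 ± 8.197 and 201 ± 24.96 (log2 1.40 ± 0.14, edgeR adjusted p = 3.00e-06). The lowest 12ON mouse had more than any mouse of group 12, and the next hnRNP gene, Hnrnpab, changed far less. Hnrnpab, which binds single-stranded nucleic acids, had 165, 194 and 178 CPM in group 12 and 252, 287 and 272 CPM in 12ON (log2 0.60 ± 0.11, edgeR adjusted p = 3.95e-04). Its antisense neighbour Phykpl shares 29.1% of its exonic bases and moved by 0.59 ± 0.10, and the pair cannot be told apart over those bases. Hnrnpc, which binds uridine tracts, lay at 90.8, 78.7 and 74.1 and 112, 128 and 116 CPM (log2 0.55 ± 0.17, edgeR adjusted p = 0.0137). Hnrnpu, a nuclear matrix protein that binds RNA and chromatin, had 201, 192 and 207 and 271, 303 and 264 CPM (log2 0.48 ± 0.10, edgeR adjusted p = 0.00119). A gene on the same strand covers 30.8% of Hnrnpu exons at 199 CPM, so part of its count is the same reads. Hnrnph1 lay at 51.5, 74.9 and 65.3 and 77.1, 96.2 and 87.2 CPM (log2 0.44 ± 0.16, edgeR adjusted p = 0.0312).

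The lower end of the family changed little. Hnrnpll, a regulator of CD45 splicing in lymphocytes, had 25.99, 33.4 and 30.2 CPM in group 12 and 34.3, 39.4 and 34.1 CPM in 12ON (log2 0.27 ± 0.10, edgeR adjusted p = 0.0341). Hnrnpdl had 40.9, 41.2 and 46.1 and 48.4, 51.3 and 53.5 CPM (log2 0.26 ± 0.08, edgeR adjusted p = 0.0146). Hnrnph3 alone fell in this family, from 12.6, 11.7 and 12.5 to 9.16, 11.1 and 8.73 CPM (log2 -0.34 ± 0.11, edgeR adjusted p = 0.0228), although its sign turned when libraries were scaled by total counts alone (0.15). Each of these 3 genes had separate groups by a small margin. Hnrnpf, Hnrnpa0, Hnrnpa2b1, Hnrnpd, Hnrnpl, Hnrnpm and Hnrnpr rose by log2 0.31 to 0.43. March2 overlaps 24.9% of Hnrnpm exons on the same strand and fell by 0.67 on the log2 scale. Hnrnpa3 (0.36 ± 0.16), Hnrnpk (0.19 ± 0.08), Hnrnpul1 (-0.09 ± 0.09), Hnrnpul2 (-0.09 ± 0.08) and Hnrnph2 (-0.13 ± 0.09) did not pass. Their levels in 12ON were 261 to 295, 266 to 281, 70.5 to 81.9, 111 to 115 and 59.3 to 60.3 CPM. Leaving out a single library ended the edgeR call for Hnrnpc without 12 replicate 3 and 12ON replicate 2 (adjusted p between 0.0536 and 0.0548), Hnrnph1 without 12 replicate 1 or 3 and 12ON replicate 2 or 3 (adjusted p between 0.0607 and 0.145), Hnrnpa2b1 without 12 replicate 1 or 3 and 12ON replicate 1, 2 or 3 (adjusted p between 0.0508 and 0.156) and Hnrnph3 without 12 replicate 1 or 3 and 12ON replicate 1 or 3 (adjusted p between 0.061 and 0.108). The same held for Hnrnpm without 12 replicate 1, 2 or 3 and 12ON replicate 2 (adjusted p between 0.0503 and 0.196), Hnrnpr without 12 replicate 1 or 3 and 12ON replicate 2 (adjusted p between 0.0534 and 0.06), Hnrnpdl without 12 replicate 1 or 2 and 12ON replicate 3 (adjusted p between 0.0515 and 0.065) and Hnrnpll without 12 replicate 1 or 3 and 12ON replicate 2 (adjusted p between 0.0662 and 0.162).

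SR genes rose for 7 of 10 members. Srsf7 (chromosome 17, 80200089 to 80207305), which also aids export of spliced mRNA, lay at 26.6, 28.2 and 31.03 CPM in group 12 and 44.5, 57.9 and 55.4 CPM in 12ON (log2 0.88 ± 0.21, edgeR adjusted p = 0.00345). Srsf1, the founding member of the family and an oncogene in some tumours, had 92.2, 85.5 and 88.5 and 129.6, 149.8 and 132 CPM (log2 0.63 ± 0.11, edgeR adjusted p = 2.91e-04). Srsf3, the smallest SR protein, had 56.4, 67.4 and 57.7 and 78.3, 103 and 95.9 CPM (log2 0.61 ± 0.18, edgeR adjusted p = 0.011), and its call ended without 12ON replicate 2 (edgeR adjusted p = 0.0513). These 3 genes were higher in every 12ON mouse than in any mouse of group 12. Srsf2, which activates exons, went from 89.4, 104 and 102 to 131, 149 and 137 CPM (log2 0.49 ± 0.12, edgeR adjusted p = 0.00301), and shares 25.3% of its exonic bases with Mettl23 and Mfsd11, which rose by 0.37 ± 0.10 and 0.47 ± 0.11. Srsf11 had 43.6, 42.2 and 48.9 and 56.5, 63.6 and 63.01 CPM (log2 0.44 ± 0.09, edgeR adjusted p = 5.88e-04). The smallest rises were those of Srsf10 (34.6, 35 and 33.9 and 42.2, 47.9 and 44.6 CPM, log2 0.38 ± 0.09, edgeR adjusted p = 0.00309) and Srsf6 (89.03, 89.7 and 99.5 and 111, 127 and 123 CPM, log2 0.38 ± 0.11, edgeR adjusted p = 0.00882). Groups did not overlap for any of these 7 genes. With the mitochondrial term Srsf3, Srsf6, Srsf10 and Srsf11 no longer passed (edgeR adjusted p between 0.0896 and 0.111), at log2 fold changes of 0.65, 0.40, 0.35 and 0.28. Srsf9 (0.11 ± 0.09), Srsf4 (0.06 ± 0.13) and Srsf5 (-0.11 ± 0.14) did not pass. The most abundant of them, Srsf5, had 182, 156 and 222 CPM in group 12 and 179, 168 and 173 CPM in 12ON, with overlap, and Srsf4 shares 43.0% of its exonic bases with the antisense gene Gm12992.

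The remaining genes with high levels or shared exons were read library by library as well. Hnrnpf had 214, 197 and 191 CPM in group 12 and 246, 290.4 and 276 CPM in 12ON (log2 0.43 ± 0.11, edgeR adjusted p = 0.00342). Hnrnpd, which encodes AUF1, a binder of AU-rich elements in mRNA, had 49.9, 45.6 and 58.1 and 67.1, 69.8 and 65.1 CPM (log2 0.39 ± 0.09, edgeR adjusted p = 0.00245). Gm17092 covers 5.24% of its exons. Hnrnpm had 97.3, 109.9 and 112 and 124, 150.5 and 123 CPM (log2 0.32 ± 0.12, edgeR adjusted p = 0.0386), and Hnrnpr 32.5, 39.4 and 32.4 and 40.5, 44.9 and 43.9 CPM (log2 0.31 ± 0.09, edgeR adjusted p = 0.0129). In these 4 genes the groups did not overlap. Hnrnpa3, whose 50-base windows occur in 41 pseudogenes, had 172, 263 and 209 and 261, 295 and 269 CPM, and its groups overlapped. Hnrnpk had 236, 230.3 and 255 and 276, 281 and 266 CPM, which lay apart by little (log2 0.19 ± 0.08, edgeR adjusted p = 0.0648). Srsf4 lay at 31.6, 32.4 and 31.1 and 33.8, 31.6 and 33.3 CPM, with overlap. Of the ring genes, Snrpd3 had 33.2, 37.8 and 33.1 and 43.9, 53.6 and 47.6 CPM, Snrpe 18.3, 16.4 and 16.9 and 27.98, 32.6 and 28.5 CPM, and Snrpg 11.3, 15.6 and 12.7 and 21.8, 24.4 and 20.3 CPM. Snrpb had 57.2, 57.5 and 61.3 and 77.2, 90.95 and 88.4 CPM. All 4 were separate between the groups.

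Ratios between pairs of related genes differed between the groups. Per exon length, Hnrnpa1 stood at 0.71 ± 0.0407 times the level of Hnrnpa2b1 in group 12 and at 1.41 ± 0.119 times in 12ON (SD, n = 3). On this scale Hnrnpa1 was below its paralog in all 3 mice of group 12 and above it in all 3 of 12ON. The crossing depends on the annotated exon lengths of 1918 and 6584 bases. In CPM, Hnrnpa1 stayed below Hnrnpa2b1, with means of 76.2 and 370 in group 12 and 201 and 487 in 12ON. Snrpb exceeded Snrpn by 4.77 ± 1.12 times in group 12 and by 10.7 ± 1.77 times in 12ON, and the ranges of 3.697 to 5.93 and 8.89 to 12.4 were apart. Hnrnph1 over Hnrnph2 went from 0.729 ± 0.0724 to 1.08 ± 0.111, also without overlap. For Hnrnpd over Hnrnpdl (0.783 ± 0.0519 and 0.865 ± 0.06), Hnrnpl over Hnrnpll (6.72 ± 1.33 and 7.104 ± 0.375) and Snrpa over Snrpb2 (2.497 ± 0.47 and 2.85 ± 0.328) the ranges overlapped. By 7OFF the first pair stood at 0.676 ± 0.0847 and the second at 5.48 ± 0.591. Hnrnpd over Hnrnpdl was then 0.599 ± 0.0314, below every mouse of group 12. The ratios were not tested.

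**Figure D2:**
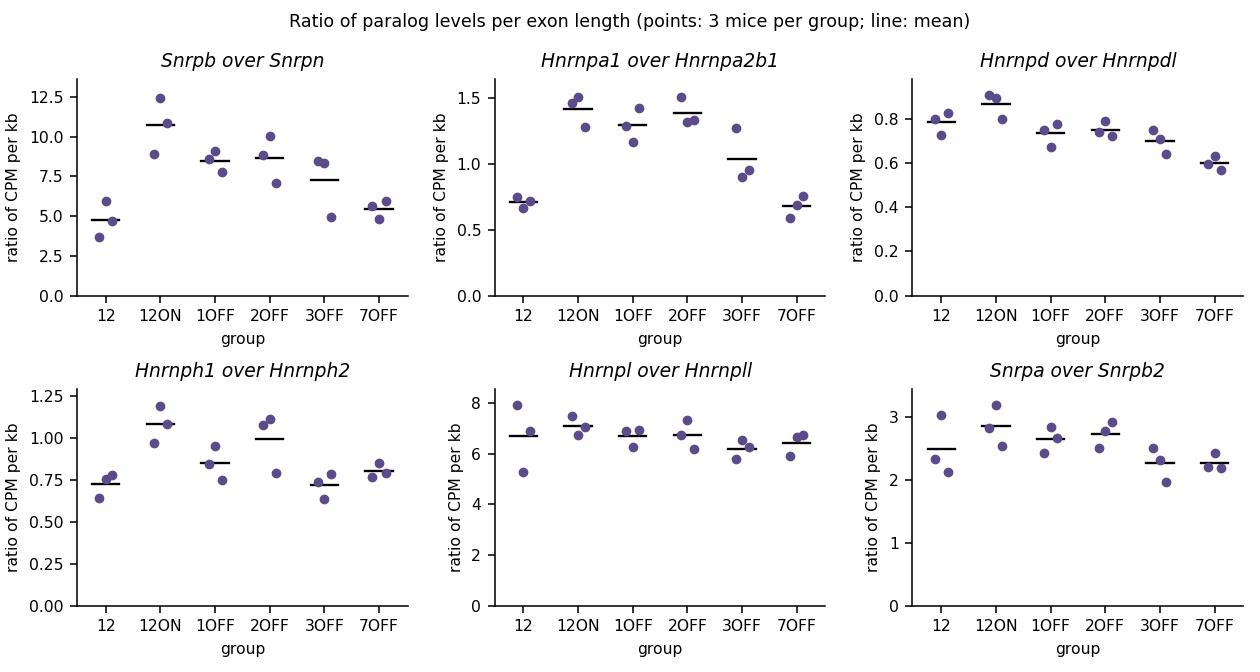
Ratio of CPM per kb of exon between 6 pairs of paralogs in each library, by group, with points for 3 mice and a line for the mean. Hnrnpa1 over Hnrnpa2b1 went from 0.666 to 0.745 in group 12 to 1.28 to 1.51 in 12ON, and the lower row and Hnrnpd over Hnrnpdl moved less, apart from Hnrnph1 over Hnrnph2.

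SR and hnRNP genes are known to control their own levels through exons that send the transcript to nonsense-mediated decay. In GENCODE M21 23 of 42 members (54.8%), snRNP genes such as Snrpb included, had any transcript annotated for that decay, against 26.6% of 15040 tested coding genes. Whether these transcripts serve such control was not tested, and genes were not matched for their number of annotated transcripts. A retained-intron transcript was annotated for 31 members (73.8%) and for 54.5% of tested coding genes. The counts used here are per gene, so these transcripts could not be told apart.

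Genes that act with these proteins were taken as lists. Of 18 genes for assembly and methylation of the Sm ring, 13 rose in 12ON (median log2 0.51). Prmt5, which methylates arginines of Sm proteins, rose by 1.63 ± 0.10, Prmt7 by 0.97 ± 0.10, and Gemin5 and Gemin4 of the SMN complex by 1.23 ± 0.12 and 1.23 ± 0.15. Of 10 LSM ring genes, most of which serve U6 and mRNA decay while Lsm10 and Lsm11 belong to the U7 snRNP of histone pre-mRNA processing, 8 rose and 1 fell (median 0.76). Lsm3 rose by 1.40 ± 0.17, Lsm7 by 1.04 ± 0.11, Lsm2 by 1.02 ± 0.16 and Lsm8 by 0.98 ± 0.13, while Lsm6 moved by -0.62 ± 0.14. Of 25 tested genes for other U1, U5, minor and tri-snRNP proteins, 13 rose and 1 fell (median 0.29), among them Eftud2 (1.03 ± 0.10), Txnl4a (1.04 ± 0.13), Prpf31 (0.83 ± 0.09) and Snu13 (0.84 ± 0.09), with Prpf6 lower (-0.25 ± 0.07). These lists can be set beside the 24% and 22.6% of all tested genes that rose and fell.

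The remaining lists had medians from 0.05 to 0.31. Among 22 genes for recognition of the branch point and the 3' splice site, 9 rose and 2 fell (median 0.17), with Sf3b3 at 0.82 ± 0.11 and Zrsr1 at -0.82 ± 0.18. The 25 genes of the PRP19 complex and catalytic steps gave 12 rises and 5 falls (median 0.21), with Prpf19 at 0.63 ± 0.09 and Syf2 at -0.34 ± 0.08. Of 14 hnRNP genes with other symbols, 8 rose and 1 fell (median 0.31), including Syncrip (0.62 ± 0.10) and Rbmx (0.66 ± 0.14), while Pcbp3, at a mean of 1.42 CPM in group 12 and 0.459 CPM in 12ON, fell (-1.64 ± 0.36). Of 36 other regulators of alternative splicing, 18 rose and 1 fell (median 0.25), with Rnps1 at 0.94 ± 0.10 and Khdrbs3 at -0.46 ± 0.17. Esrp1, an epithelial splicing regulator, rose by 4.04 ± 0.69 from a mean of 0.0429 to 0.879 CPM, a level too low for a firm fold. Of 8 SR protein kinases 3 rose and 1 fell (median 0.05): Srpk1 (0.82 ± 0.16), Prpf4b (0.41 ± 0.10) and Srpk2 (0.28 ± 0.09) against Srpk3 (-2.24 ± 0.63). Of 15 factors of nonsense-mediated decay 5 rose (median 0.19), with Magohb at 1.59 ± 0.18.

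The second question was how the OFF groups differ from 12ON. Each of these comparisons uses the same 3 mice of 12ON, so they are not independent of each other or of the first comparison. In 1OFF no member passed edgeR's test (0 higher and 0 lower, against 0.00562% and 0% of all genes), with 21 members at an unadjusted p under 0.05 and 3 lower by DESeq2. Shares of all genes at that unadjusted p, or lower by DESeq2, were not computed, so these 21 and 3 have no background beside them. The median log2 difference was -0.24, against 0.003 over all genes. Every 1OFF library lay below every 12ON library for 27 members and above for 3, where 15% and 12.4% of tested genes did so. Hnrnpa1 had 170.2, 152 and 144 CPM in 1OFF, all below 12ON (log2 -0.37 ± 0.14, edgeR adjusted p = 0.232). Snrpd1 stood at 20.2, 19.9 and 15.4 CPM, also below all 12ON mice (log2 -0.55 ± 0.15, edgeR adjusted p = 0.121). Srsf1 lay at 95.4, 107 and 96.9 CPM, Snrpd2 at 50.01, 48.1 and 42.8 CPM and Hnrnpab at 216, 213 and 202 CPM, each below the 12ON range. Srsf7 had 35.5, 41.3 and 30.4 CPM and the lowest log2 difference of any member, -0.56 ± 0.21.

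In 2OFF again no member passed edgeR's test (0 higher and 0 lower, against 0% and 0% of genes), with 21 at an unadjusted p under 0.05 and a median of -0.22, against 0.01 over all genes. DESeq2 called 11 lower. For 19 members every 2OFF library lay below every 12ON library, and for 0 above, where 12.2% and 9.29% of tested genes did so. The group was uneven: 2OFF replicate 2 was the highest of its group for 35 of 42 members, and without it 13 members were lower in edgeR. Shares of all genes were not computed for that fit, for DESeq2 or at that unadjusted p. These 13, 11 and 21 therefore have no background beside them. Snrpd1 lay at 17.01, 22.3 and 14.97 CPM and Hnrnpa1 at 162, 178 and 132 CPM in the 3 libraries. Snrpd2 lay at 43.2, 48.2 and 37.4 CPM, Srsf1 at 101, 116 and 91.3 CPM and Hnrnpab at 191, 236 and 184 CPM. The second library was the highest for all 5. Cycling cell markers summed to 95.6 to 321 CPM in this group and to 134 to 225 in 1OFF, and the 9 hepatocyte markers to 42379.6 to 47216 and 42800.3 to 48718 CPM. Replicate 2 of 2OFF had the 321 CPM, against 143 and 95.6 CPM in the others, and the lowest hepatocyte sum of its group. The part of these markers in the levels of members was not tested.

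In 3OFF most members were below 12ON: 31 of 42 fell and 1 rose, against 17% and 15.3% of all tested genes. The median was -0.42, against 0.01 over all genes. Of snRNP genes 11 of 12 fell (median -0.70), of hnRNP genes 13 of 20 (median -0.38) and of SR genes 7 of 10, with 1 higher (median -0.38). No overlap between the groups was seen for 34 lower and 2 higher members, against 26.3% and 25.1% of tested genes. Srsf7 fell the most, to 21.4, 26.9 and 17.5 CPM (log2 -1.26 ± 0.22, edgeR adjusted p = 6.11e-04). Snrpd1 fell to 12.3, 12.02 and 9.702 CPM (log2 -1.25 ± 0.15, edgeR adjusted p = 7.98e-05). Every 3OFF mouse was below every 12ON mouse for both genes. Hnrnpa1 lay at 109, 92.3 and 89.6 CPM (log2 -1.05 ± 0.14, edgeR adjusted p = 1.36e-04), and Srsf3 at 53, 47.6 and 37.5 CPM (log2 -1.004 ± 0.18, edgeR adjusted p = 8.26e-04). Snrpd2 had 32.8, 31.1 and 30.6 CPM (log2 -0.86 ± 0.09, edgeR adjusted p = 5.54e-05), Srsf1 77.4, 71.4 and 63.7 CPM (log2 -0.95 ± 0.11, edgeR adjusted p = 7.60e-05) and Hnrnpab 169.7, 180.04 and 148 CPM (log2 -0.70 ± 0.11, edgeR adjusted p = 3.35e-04). Each was below 12ON in all 3 mice. Srsf5 alone rose, to 266, 227 and 231 CPM (log2 0.48 ± 0.14, edgeR adjusted p = 0.0176). Scaled by total counts alone the log2 difference was 0.16 and the call ended (edgeR adjusted p = 0.487). Its 3 values lay above all of 12ON, but in edgeR the call ended for Srsf5 without 12ON replicate 2 or 3 and 3OFF replicate 1 (adjusted p between 0.0574 and 0.0744). The calls of Srsf11, Hnrnpk, Srsf6 and Hnrnpf also ended without single libraries: Srsf11 without 12ON replicate 2 or 3 and 3OFF replicate 2 (adjusted p between 0.0621 and 0.0963), Hnrnpk without 12ON replicate 2 and 3OFF replicate 1 or 2 (adjusted p between 0.0502 and 0.0665), Srsf6 without 3OFF replicate 3 (adjusted p = 0.0607) and Hnrnpf without 3OFF replicate 3 (adjusted p = 0.0526). Hnrnpk, a binder of C-rich sequence with 219.9, 229.6 and 234 CPM, had the smallest called fall (log2 -0.27 ± 0.08, edgeR adjusted p = 0.0197).

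**Figure D3:**
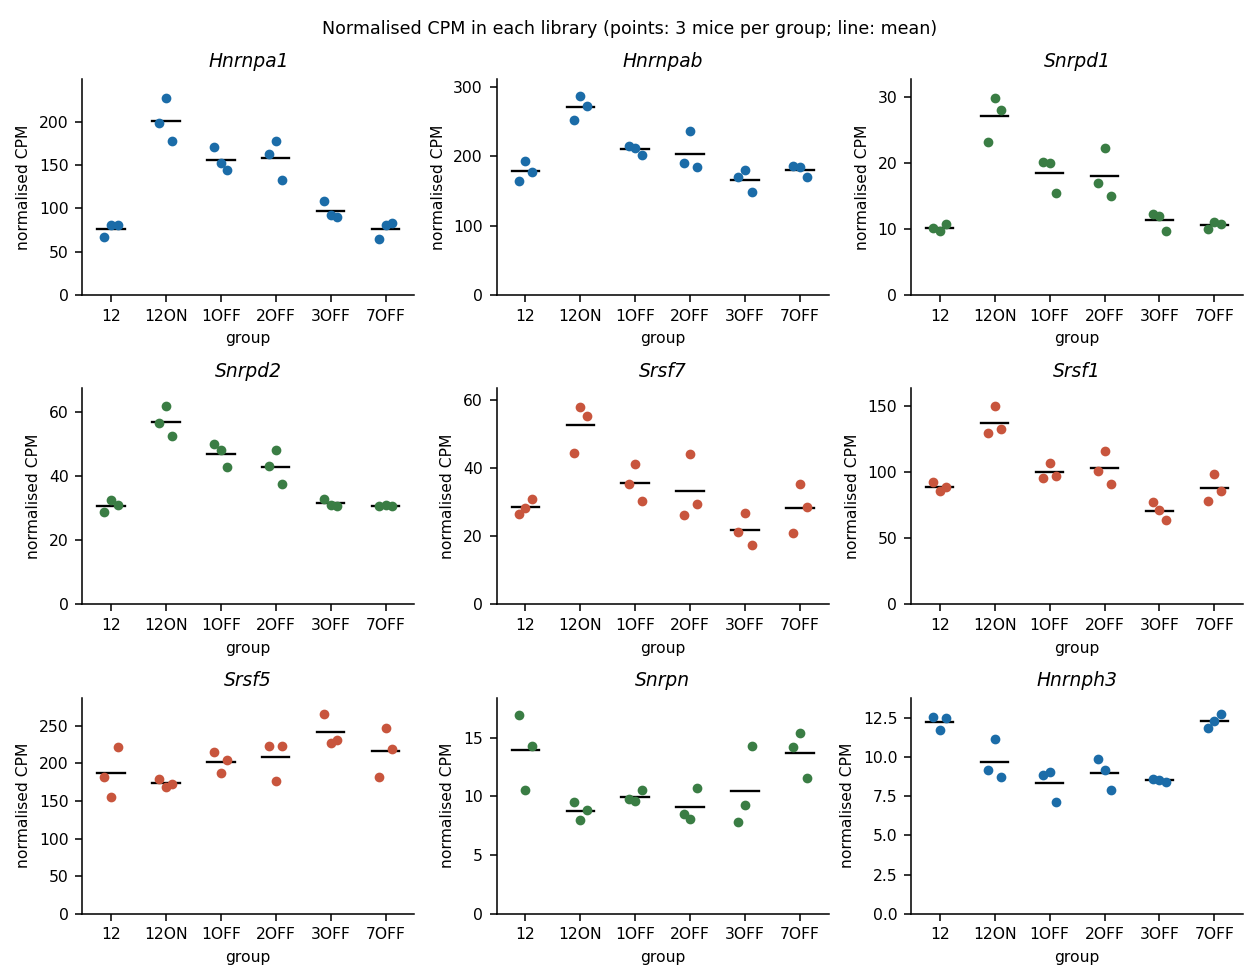
Normalised CPM of 9 members in each of 18 libraries by group, with points for 3 mice and a line for the mean; blue marks hnRNP, red SR and green snRNP genes. Hnrnpa1, Hnrnpab, Snrpd1, Snrpd2, Srsf7 and Srsf1 peak in 12ON, Srsf5 is highest in 3OFF, and Snrpn and Hnrnph3 are low in 12ON and high again in 7OFF, a direction that turns for Hnrnph3 with scaling by total counts alone.

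In 7OFF 24 members were lower than in 12ON and 2 higher, against 22.7% and 21.4% of all tested genes, with a median of -0.34 (0.006 over all genes). Scaled by total counts alone, 37 were lower and 0 higher, where the median of all genes shifted by -0.41. Of snRNP genes 9 of 12 fell and 1 rose, of hnRNP genes 11 of 20 and 1, and of SR genes 4 of 10. Libraries did not overlap for 30 lower and 5 higher members, against 27.8% and 26.2% of tested genes. Hnrnpa1 stood at 64.2, 80.99 and 82.9 CPM (log2 -1.40 ± 0.14, edgeR adjusted p = 4.76e-06) and Snrpd1 at 10.02, 11.04 and 10.8 CPM (log2 -1.35 ± 0.15, edgeR adjusted p = 8.71e-06). Srsf7 lay at 20.96, 35.5 and 28.6 CPM (log2 -0.89 ± 0.21, edgeR adjusted p = 0.00338) and Srsf1 at 78.3, 98.8 and 86 CPM (log2 -0.65 ± 0.11, edgeR adjusted p = 2.68e-04), and for both genes the mice of 7OFF lay below those of 12ON. The first 2 genes were far below 12ON in all 3 mice and within or close to the range of group 12. Snrpn rose to 14.3, 15.4 and 11.6 CPM (log2 0.64 ± 0.20, edgeR adjusted p = 0.0186) and Hnrnph3 to 11.8, 12.3 and 12.7 CPM (log2 0.35 ± 0.11, edgeR adjusted p = 0.022), but with total counts alone the sign turned for Hnrnph3 (-0.076) and the call ended for Snrpn (0.22, edgeR adjusted p = 0.372). These are the genes that were lower in 12ON than in group 12. In edgeR their calls ended for Snrpn without 12ON replicate 2 and 7OFF replicate 2 (adjusted p between 0.0695 and 0.0763) and Hnrnph3 without 12ON replicate 1 or 3 and 7OFF replicate 3 (adjusted p between 0.0615 and 0.123). The same was seen for Hnrnpk without 12ON replicate 1 or 2 and 7OFF replicate 1, 2 or 3 (adjusted p between 0.0515 and 0.0737), Hnrnpr without 12ON replicate 2 or 3 and 7OFF replicate 1 (adjusted p between 0.0541 and 0.104), Hnrnpa0 without 12ON replicate 1 or 2 and 7OFF replicate 1 or 2 (adjusted p between 0.057 and 0.0967) and Hnrnpm without 12ON replicate 2 and 7OFF replicate 1 (adjusted p between 0.148 and 0.157).

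Cycling markers summed to 69.2 to 88.4 CPM in 3OFF and 43.97 to 55 CPM in 7OFF, and all 8 fell against 12ON in both. The hepatocyte markers summed to 58339.8 to 85711 and 74812 to 92906 CPM, with 8 of 9 higher than in 12ON in each. Cholangiocyte markers fell for all 6 in each, to 69.7 to 83.5 and 49.7 to 78.8 CPM. Endothelial markers were higher for 6 of 6 in 3OFF and 4 of 6 in 7OFF (245 to 296 and 229 to 279.7 CPM), and stellate markers lower for 2 of 6 in each (155 to 199.9 and 114 to 189.6). Kupffer cell markers were higher for 3 of 6 in 3OFF and lower for 1 in 7OFF (995 to 1367 and 619 to 666 CPM), and lymphocyte markers higher for 2 and 3 of 6 (4.91 to 5.33 and 4.05 to 7.03). Of erythroid markers 0 passed in 3OFF, and 5 of 6 were lower and 1 higher in 7OFF (122 to 692 and 98.5 to 168 CPM), while no neutrophil marker passed in either. The part of these markers in the fall of members was not tested.

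The lists of partner genes were read against the 17% and 22.7% of all tested genes that fell in 3OFF and 7OFF. Of the 18 Sm assembly genes, 12 fell in 3OFF and 14 in 7OFF (medians -0.55 and -0.45), and Prmt5 had log2 differences of -1.13 ± 0.10 and -1.41 ± 0.10. Of 10 LSM genes 7 fell in 3OFF, and 6 fell and 1 rose in 7OFF (medians -0.69 and -0.77). These lists had the lowest medians of the 9. Of 25 other snRNP protein genes 15 fell and 1 rose in 3OFF, and 10 fell and 2 rose in 7OFF. Of 22 genes for the branch point and 3' splice site 11 fell and 1 rose, and 9 fell and 2 rose, respectively. The 14 hnRNP genes with other symbols gave 7 falls and 1 rise, and 6 and 1. For the 36 other splicing regulators there were 13 falls and 1 rise in 3OFF and 10 falls in 7OFF. Medians of these 4 lists were -0.36 and -0.22, -0.31 and -0.11, -0.31 and -0.15, and -0.15 and -0.12, in the order given. The 25 PRP19 and catalytic genes gave 9 falls and 1 rise, and 8 and 5 (medians -0.17 and -0.09). Among 15 decay factors 4 fell and 1 rose, and 3 fell and 1 rose (medians -0.09 and -0.04). Among 8 SR protein kinases 1 fell in 3OFF, and 2 fell and 2 rose in 7OFF (medians -0.09 and 0.19).

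Set directly against group 12, 7OFF showed 1 member higher and 0 lower, where 2.47% of all genes were higher and 3.31% lower. The median was 0.02 over members and 0.02 over all genes, 4 members had an unadjusted p under 0.05, and DESeq2 called 1 higher and 0 lower. Shares of all genes at that unadjusted p or by DESeq2 were not computed. All libraries lay apart for 4 higher and 0 lower members, against 11.5% and 11.5% of tested genes. Hnrnpdl, a relative of the AU-rich element binding protein encoded by Hnrnpd, was higher, at 55.8, 55.6 and 54.3 CPM against 40.9, 41.2 and 46.1 CPM (log2 0.37 ± 0.08, edgeR adjusted p = 0.0164). The groups did not overlap, but the call ended for Hnrnpdl without 12 replicate 1 or 2 and 7OFF replicate 1 (adjusted p between 0.0516 and 0.066). For the rest a missed threshold does not show equality. The 95% interval of the log2 difference was -0.31 to 0.30 for Hnrnpa1, -0.27 to 0.39 for Snrpd1, -0.21 to 0.20 for Snrpd2 and -0.48 to 0.45 for Srsf7. Thus a 2-fold difference lay outside the interval for each of these 4 genes. The snRNP genes summed to 263 ± 6.84 CPM in group 12 and 278 ± 17.6 CPM in 7OFF. Cell markers differed between these groups: 5 of 6 Kupffer cell markers were lower in 7OFF (1315 to 1733 CPM summed in group 12 and 619 to 666 in 7OFF), among them Marco (-3.80 ± 0.77). Of 6 endothelial markers 1 was lower, Cdh5 (-0.65 ± 0.16). Of 6 cholangiocyte markers 1 was higher, Epcam (1.71 ± 0.35), while the lowest log2 difference in that list was -0.59. Cholangiocyte sums overlapped (32.4 to 93.8 CPM in group 12 and 49.7 to 78.8 in 7OFF). Of 9 hepatocyte markers 1 was higher, Cps1 (0.81 ± 0.19), with a median of 0.02 and a lowest value of -0.68 over the list. Hepatocyte markers summed to 110463 to 120087 and 74812 to 92906 CPM. The part of these markers in the comparison of members was not tested.

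The change between the first and last OFF groups was tested in the comparison of 7OFF with 1OFF. In it 8 members were lower and 2 higher in 7OFF, against 15.8% and 14.8% of all genes, and the median was -0.12, against 0.005 over all genes. Libraries lay fully apart for 16 lower and 3 higher members (22.3% and 21.5% of tested genes). Scaled by total counts alone, 22 were lower and 0 higher in edgeR, while the median of all genes moved by -0.26. Hnrnpa1 (log2 -1.03 ± 0.14, edgeR adjusted p = 1.43e-04) and Snrpd1 (log2 -0.80 ± 0.15, edgeR adjusted p = 0.00113) fell most. Snrpf, Snrpa1, Snrpd2, Snrpg, Snrpe and Snrpc, all snRNP genes, fell by log2 differences from -0.67 to -0.45. Snrpd2, for example, had 50.01, 48.1 and 42.8 CPM in 1OFF and 30.7, 30.9 and 30.7 CPM in 7OFF. No SR gene passed in edgeR, although 1 of 10 had an unadjusted p under 0.05, for which no share of all genes was computed. Hnrnph3 rose from 8.86, 9.01 and 7.14 to 11.8, 12.3 and 12.7 CPM (log2 0.55 ± 0.11, edgeR adjusted p = 0.00223) and Hnrnpul2 from 106, 111 and 103 to 126, 134 and 118 CPM (log2 0.24 ± 0.08, edgeR adjusted p = 0.0428), but with total counts alone the call ended for Hnrnph3 (0.29, edgeR adjusted p = 0.16) and the sign turned for Hnrnpul2 (-0.037). In edgeR the calls ended for Hnrnpul2 without 1OFF replicate 1, 2 or 3 and 7OFF replicate 1 or 2 (adjusted p between 0.0609 and 0.147) and Snrpc without 1OFF replicate 1 or 2 and 7OFF replicate 1 (adjusted p between 0.0503 and 0.0785).

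Across the 6 groups, 34 of 42 members had their highest mean in 12ON, and 19 had their lowest in 3OFF and 13 in group 12. The same counts were not made over all tested genes, so no background share can be given. The sum over all members ran from 3312 ± 140.1 CPM in group 12 through 4395 ± 255 in 12ON, 3780.2 ± 162 in 1OFF, 3754 ± 359 in 2OFF and 3211 ± 162 in 3OFF to 3439 ± 179.8 in 7OFF. The 12ON range lay above all others, those of 1OFF and 2OFF overlapped, and so did those of group 12, 3OFF and 7OFF. The 7OFF range (3283 to 3635 CPM) also overlapped those of 1OFF (3593 to 3884) and 2OFF (3512 to 4166). The snRNP sum followed with 417 ± 29.7 CPM in 12ON, 346 ± 26.8 in 1OFF, 321 ± 31.7 in 2OFF and 266 ± 10.4 in 3OFF. The SR sum lay between 694 ± 41.6 CPM in group 12 and 883 ± 46.98 CPM in 12ON. In 3OFF the SR genes Srsf7, Srsf1 and Srsf3 had means of 21.9 ± 4.72, 70.8 ± 6.85 and 46.03 ± 7.85 CPM, against 28.6 ± 2.26, 88.7 ± 3.37 and 60.5 ± 6.02 CPM in group 12, a pair of groups that was not tested here. Members of other families, such as Hnrnpa3 and Snrpa, also had lower means in 3OFF than in group 12. Others, such as Srsf5 and Hnrnpdl, had higher ones.

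**Figure D4:**
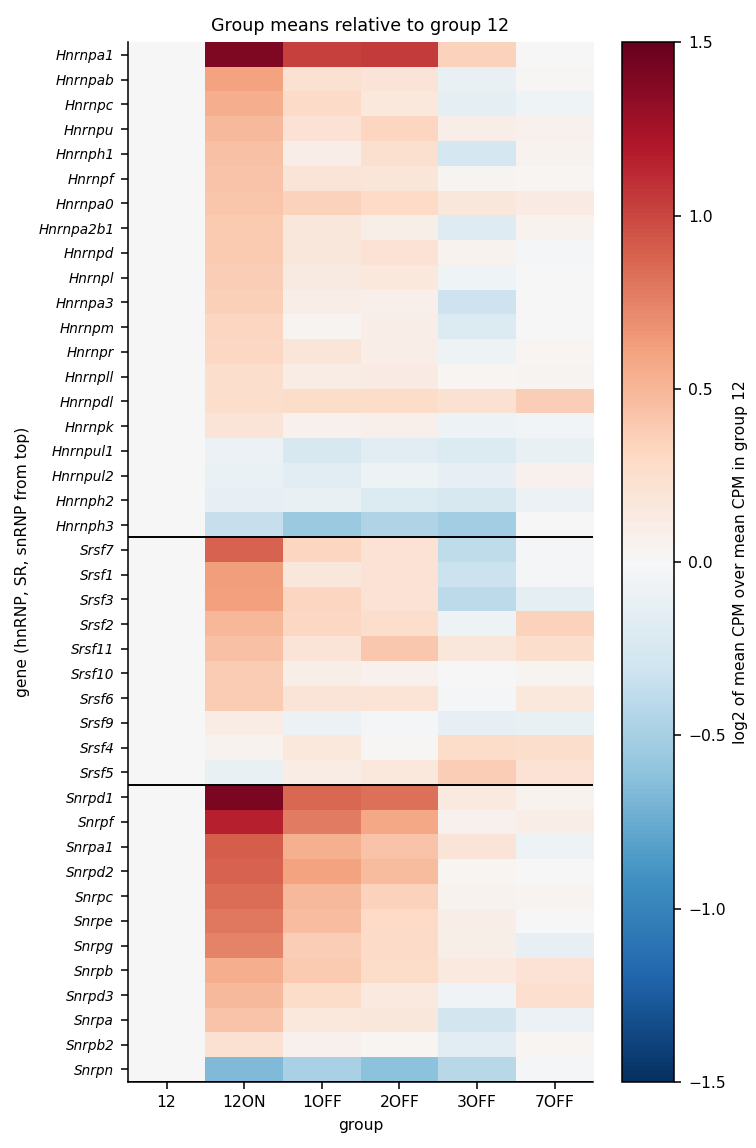
Log2 of the mean CPM of each member in each group over its mean in group 12, with hnRNP, SR and snRNP genes separated by lines and red for higher. Most genes are reddest in 12ON and pale again in 3OFF and 7OFF. Srsf7, Srsf1 and Srsf3 are blue in 3OFF, as are genes of the other families such as Hnrnpa3 and Snrpa, and Snrpn and Hnrnph3 are blue from 12ON to 3OFF.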

How the data were processed

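Raw counts per gene were deposited for 18 libraries. Per the submitters' processing notes, single reads of 50 bases were trimmed with Trim Galore and aligned to mm10 with TopHat2 (versions not given in the sources used here). Counts were made with featureCounts 1.5.0-p1 on Ensembl 82 exons, unstranded, with a minimum overlap of 10 bases, for every overlapping gene and without multiply aligned reads, per the file headers. IDs were matched to symbols (34599 of 34937 genes).

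All libraries entered 1 edgeR 4.0.16 fit (R 4.3.3, TMM, filterByExpr at a minimum count of 10, 12 residual degrees of freedom), checked on simulated data. Tests were two-sided quasi-likelihood F tests, adjusted over all genes. Standard errors are the log2 fold change over the root of F. Replicates differed by a chi-square per gene of 33.9 or more, so none was a copy. The labels do not state separate litters or batches. Members and lists were chosen with earlier results of these data known. Members named with every value were the highest and lowest called per family and comparison, those going against their family, those sharing exons with another gene, and the extremes per length. Alternatives included DESeq2 1.42.0, other scalings, no filter, a replicate block, fits of 2 groups and leaving out each library.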

Additional observations from a re-analysis of the deposited data

Results flagged for a closer look

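The log2 difference from 12ON changed between 1OFF and 7OFF for 10 of 42 members, 8 lower and 2 higher, by the direct test of 7OFF against 1OFF in edgeR with Benjamini-Hochberg adjustment at 0.05. Of all tested genes 15.8% were lower and 14.8% higher, so the members' total was no larger a share than that of all genes. Given as 7OFF minus 1OFF, it was -1.03 ± 0.14 for Hnrnpa1 and -0.80 ± 0.15 for Snrpd1. The other Sm ring genes among these 10 were at -0.67 ± 0.14 for Snrpf, -0.61 ± 0.09 for Snrpd2, -0.50 ± 0.13 for Snrpg and -0.46 ± 0.10 for Snrpe. Of the 8 ring genes 5 were lower and 3, Snrpb, Snrpd3 and Snrpn, did not pass, with a highest log2 difference of 0.46. Of the proteins of U1 or U2 alone, Snrpa1 was at -0.62 ± 0.15 and Snrpc at -0.45 ± 0.13. In the other direction, Hnrnph3 was at 0.55 ± 0.11 and Hnrnpul2 at 0.24 ± 0.08, which with total counts alone became 0.29 (edgeR adjusted p = 0.16) and -0.037. The call of Hnrnpul2 also ended without 5 of the 6 libraries, each left out in turn. Both OFF groups were measured against the same 12ON mice, which drop out of the direct test. Xist was low in all of 1OFF and high in 1 library of 7OFF, and summed cycling markers were 134 to 225 CPM in 1OFF and 43.97 to 55 CPM in 7OFF. Their part in these differences was not tested.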

How the results depend on the processing

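In 12ON against group 12, 22 of 34 calls held without each library in turn and 28 under every other setting tried, the terms added later apart. Counts without single libraries ran from 23 to 31 higher and 0 to 2 lower. In the other comparisons they were 0 to 13 lower in 2OFF, 0 to 1 higher and 29 to 32 lower in 3OFF, 1 to 3 higher and 20 to 24 lower in 7OFF against 12ON, 0 to 1 higher in 7OFF against group 12, and 1 to 2 higher and 7 to 9 lower in 7OFF against 1OFF. Total counts without a scaling factor gave 0 lower in 12ON, 2 lower in 2OFF, 0 higher in 3OFF, 0 higher and 37 lower in 7OFF against 12ON, and 0 higher and 22 lower in 7OFF against 1OFF, since that scaling shifts all genes. It turned the sign in 12ON against group 12 of Hnrnph2 (0.37), Hnrnpul1 (0.41), Hnrnph3 (0.15), Srsf5 (0.37) and Hnrnpul2 (0.40), in 7OFF against 12ON of Hnrnph3 (-0.076) and in 7OFF against 1OFF of Hnrnpul2 (-0.037). Without single libraries Srsf5 ran from -0.22 to 0.036 in 12ON, the latter without 12 replicate 3. DESeq2 called 3 lower in 1OFF and 11 lower in 2OFF. With only the 2 groups compared in the fit, 7OFF gave 1 higher against 12ON and 0 higher against group 12. Without the filter, 7OFF against 1OFF gave 1 higher. The mitochondrial term gave 16 higher and 1 lower in 12ON, 0 higher in 7OFF against group 12 and 1 higher in 7OFF against 1OFF. Shares of all tested genes called were computed for the main fit only, so none stands beside these counts. The causes were not tested.

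The labels do not pair mice by replicate number, and deviations of same-numbered mice correlated at -0.18 to 0.34, with no comparison above 0.1 in all 3 pairs. The replicate block gave 9 lower in 2OFF against 12ON and 2 higher in 7OFF against group 12, and other counts stayed within 1.5 times.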

Other observations

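The members without a call in 12ON against group 12 were not all at rest elsewhere. Hnrnpa3 and Hnrnpk, which did not pass there, fell in 3OFF against 12ON (log2 -0.67 ± 0.16 and -0.27 ± 0.08, edgeR adjusted p = 0.00537 and 0.0197). Hnrnph2, Hnrnpul1, Srsf4 and Srsf9 passed in none of the 7 comparisons in edgeR. Their highest group mean exceeded their lowest by 1.18, 1.18, 1.21 and 1.18 times. Srsf5 had its lowest mean in 12ON on the TMM scale, at 173 ± 5.201 CPM, and its highest in 3OFF, at 241 ± 21.2 CPM (SD, n = 3), a span of 1.39 times.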
